A study of Mus musculus with 2 samples.

Results

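Fc receptors bind the constant part of antibodies and so link antibody-coated particles to the cells that engulf them. Transcripts of 8 genes were followed here in peritoneal macrophages: the activating IgG receptors Fcgr1, Fcgr3 and Fcgr4, the inhibitory IgG receptor Fcgr2b, the neonatal receptor Fcgrt, the adaptors Fcer1g and Tyrobp, and the kinase Syk. They were taken by name from the deposited expression table, as probesets of the main category that carry the symbol of 1 of these genes and no other. All 8 were found, among 24314 genes that had a single symbol.

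The cells were elicited in the abdomen of C57BL/6 mice with thioglycollate, an irritant that recruits macrophages, kept overnight in RPMI medium with serum and not treated. Total RNA of the adherent cells of HDAC11 knockout mice and of WT mice was hybridised to an Affymetrix array, 1 array per genotype. HDAC11 is a histone deacetylase. The sources used here do not give how the knockout was made, the number of mice behind an RNA sample, or the age and sex of the mice. The values are the authors' RMA signals, and a difference is the log2 signal of the array labelled HDAC11 KO minus that of the WT array. Since each genotype has 1 array, nothing below could be set against a spread between replicates, no p-value is given, and precision is limited by the array number. A gene entered the counts when its brighter signal reached the floor of 159, the median of all named genes, which left 12157 genes.

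In macrophages the mouse activating IgG receptors signal by pairing with the FcRγ chain encoded by Fcer1g. The FcRγ chain holds an immunoreceptor tyrosine-based activation motif (ITAM). Src family kinases phosphorylate the motif, Syk binds it, and phospholipase Cγ, Vav exchange factors and phosphoinositide 3-kinase then drive engulfment and the oxidative burst. Fcgr2b holds an inhibitory motif (ITIM) in its own tail, which recruits the lipid phosphatase SHIP1, and the balance of activating and inhibitory receptors sets the threshold for a response to immune complexes. Tyrobp encodes DAP12, another ITAM adaptor, which serves receptors such as TREM2. Fcgrt encodes the heavy chain of the neonatal Fc receptor, which pairs with β2-microglobulin and returns internalised IgG to the cell surface.

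RefSeq's promoter entries for the 4 IgG receptors are shown because the activating and inhibitory receptors are compared below. Of the 8 genes, 7 had an entry in RefSeq's promoter table for GRCm38.p6, and Tyrobp had none. The 250 bases before each listed start were searched on both strands for GAGGAA and TTCNNNGAA. GAGGAA is a form of the site bound by the myeloid factor PU.1. TTCNNNGAA is the palindromic form of the interferon-gamma-activated site. Other forms of these sites were not searched for. Matches are in capitals, and TTCCTC is GAGGAA on the other strand. The sequences run 5′ to 3′ along each gene's own strand.

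Fcgr1, chr3:96293970-96294219, minus strand: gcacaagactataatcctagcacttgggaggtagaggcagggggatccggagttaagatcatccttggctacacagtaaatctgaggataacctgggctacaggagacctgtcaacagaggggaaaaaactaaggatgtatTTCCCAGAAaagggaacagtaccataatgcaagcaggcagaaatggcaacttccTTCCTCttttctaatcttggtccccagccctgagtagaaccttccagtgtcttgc
Fcgr3, chr1:171059404-171059653, minus strand: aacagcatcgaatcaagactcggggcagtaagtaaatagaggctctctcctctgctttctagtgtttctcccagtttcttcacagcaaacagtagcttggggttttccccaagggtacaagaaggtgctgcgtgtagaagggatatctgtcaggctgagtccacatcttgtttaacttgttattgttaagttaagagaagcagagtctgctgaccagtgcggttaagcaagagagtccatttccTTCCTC
Fcgr4, chr1:171018676-171018925, plus strand: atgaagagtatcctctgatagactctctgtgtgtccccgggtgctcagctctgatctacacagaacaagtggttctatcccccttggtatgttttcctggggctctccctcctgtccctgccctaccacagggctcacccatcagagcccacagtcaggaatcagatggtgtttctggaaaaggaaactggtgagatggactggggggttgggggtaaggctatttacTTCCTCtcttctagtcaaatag
Fcgr2b, chr1:170976072-170976321, minus strand: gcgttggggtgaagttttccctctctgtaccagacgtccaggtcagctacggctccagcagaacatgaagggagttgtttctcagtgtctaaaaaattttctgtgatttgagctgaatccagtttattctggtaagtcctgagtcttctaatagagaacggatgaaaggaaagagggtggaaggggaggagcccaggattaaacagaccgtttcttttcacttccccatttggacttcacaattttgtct

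Each of the 3 activating receptors held TTCCTC within 55 bases of its listed start. Fcgr2b held neither TTCCTC nor GAGGAA in this window, and shorter forms of the site were not counted. Among the first promoter entries of 27025 mouse genes, 23.1% held GAGGAA on either strand. Syk held it before the second of its 2 listed starts, while Fcer1g and Fcgrt did not hold it. Fcgr1 alone of the 7 held TTCNNNGAA, as TTCCCAGAA, which 7.18% of the 27025 promoters held. Of all these promoters, 1.64% held both motifs. Fcgr3 has 2 listed starts, and the deposited probeset of Fcgr3 extends further upstream than either. RefSeq's span of Fcgr3, on the minus strand, reaches to 171065915, so the Fcgr3 stretch shown lies inside the gene. The Syk stretches searched also lie inside RefSeq's span of Syk. The Fcgr1 stretch lies outside RefSeq's span of Fcgr1 but inside that of the deposited probeset, which reaches to 96294256. The stretches of Fcgr4 and Fcgr2b overlap the spans of their deposited probesets in part. Whether these stretches act as promoters was not tested. A match is a description of the letters and not evidence that a factor binds there.

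The 3 Fcγ receptor genes of chromosome 1 were slightly higher on the knockout-labelled array, and Fcgr1 on chromosome 3 was slightly lower. Over all 8 genes, 6 were higher and 2 lower, and the median was 0.16, over a range of -0.12 to 0.25 on the log2 scale. None reached 1.2-fold in either direction. Of genes above the floor, 7.11% did so upward and 6.93% downward (864 and 842 genes). With each array centred on its median over all 24314 genes, dim ones included, these counts became 542 and 1456. None of the 8 reached 1.5-fold either, against 0.543% of genes higher and 1.01% lower. Any difference above 0 was seen in 46.4% of genes above the floor, whose median was -0.01. Each of the 8 lay within the middle 95% of the differences of the 500 genes nearest to it in mean signal. The 8 probesets, of 16 to 32 probes each, are marked unique in the deposited annotation, and no gene had a second one. None is in the authors' sheet of probesets selected at 1.5-fold.

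**Figure D1:**
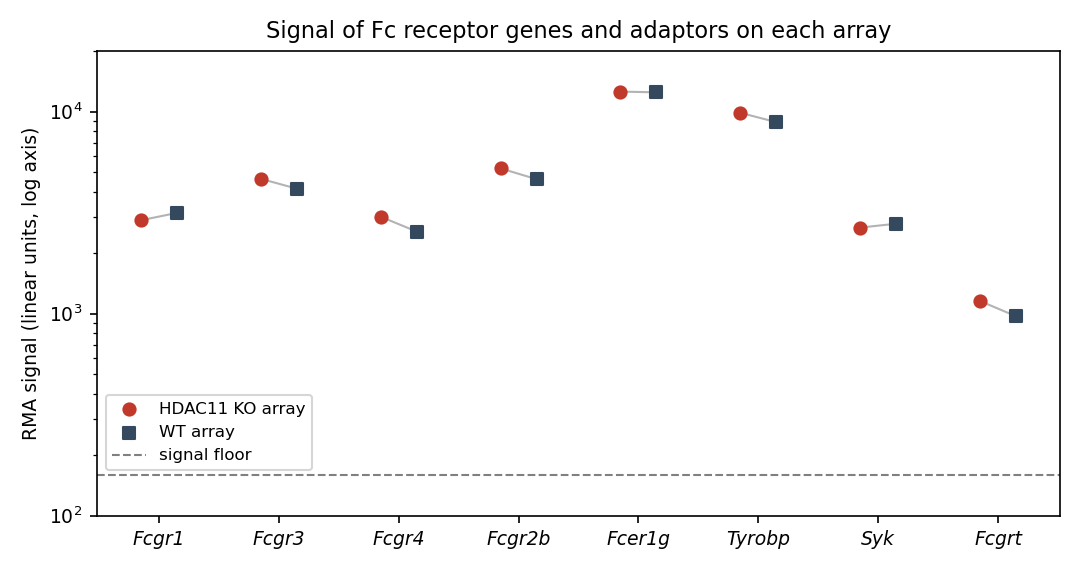
RMA signal of each gene on the array labelled HDAC11 KO (circles) and on the WT array (squares), on a log axis, with the signal floor of 159 dashed. Both arrays lie close together for every gene and far above the floor; signals of different genes come from different probes and are not on a common scale.

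Fcgr4 encodes a mouse activating receptor for IgG2a and IgG2b found on monocytes, macrophages and neutrophils (chromosome 1, 171018920 to 171029761, plus strand). It gave a signal of 3017 on the knockout-labelled array and 2548 on the WT array, a difference of 0.24 or 1.18-fold. Of the activating receptors it differed most, and it stood at the 95.6th percentile of genes of like signal, whose middle 95% ran from -0.23 to 0.29. Fcgr3 encodes the low-affinity activating receptor for IgG immune complexes (chromosome 1, 171051169 to 171064935, minus strand). It gave 4647 on the knockout-labelled array and 4153 on the WT array, a difference of 0.16 or 1.12-fold, at the 89th percentile.

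Fcgr1 encodes the high-affinity IgG receptor, an interferon-gamma-inducible gene of monocytes and macrophages (chromosome 3, 96282909 to 96294256, minus strand). It gave 2898 on the knockout-labelled array and 3151 on the WT array, a difference of -0.12 or 1.09-fold, at the 18.4th percentile of genes of like signal. It was the only IgG receptor with the lower signal on the knockout-labelled array.

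Fcgr2b, the inhibitory receptor, lies between its activating relatives in size of difference (chromosome 1, 170960558 to 170976127, minus strand). It gave 5233 on the knockout-labelled array and 4629 on the WT array, a difference of 0.18 or 1.13-fold, at the 91.2nd percentile. The proteins of Fcgr2b and Fcgr3 share most of their extracellular sequence. Both probesets are marked unique, and shared signal between them was not tested.

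The balance of activating and inhibitory receptors was read as a difference of differences, since levels of different probesets cannot be set against each other. The difference of Fcgr4 exceeded that of Fcgr2b by 0.07, and the difference of Fcgr3 minus that of Fcgr2b was -0.02. The difference of Fcgr1 minus that of Fcgr2b was -0.30. As a mean over the 3 activating receptors, the difference was 0.09 against 0.18 for Fcgr2b, a gap of -0.08. Of the 3 gaps, only that of Fcgr1 exceeded 0.15, the median disagreement between the probesets of the 411 genes that had a pair of them above the floor. The 95th percentile of that disagreement was 0.61, which none of the 3 gaps reached.

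**Figure D2:**
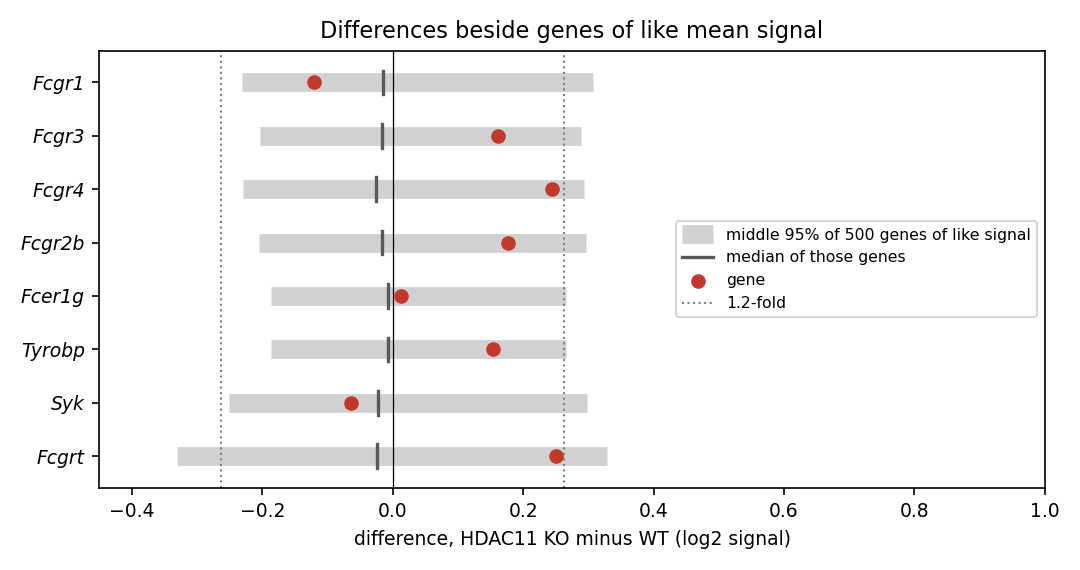
Difference in log2 signal, HDAC11 KO minus WT, of each gene (red points), over the middle 95% of the 500 genes nearest in mean signal (grey bars) and their median (dark lines). All 8 points lie within their bars and within the dotted lines at 1.2-fold; Fcgr4 and Fcgrt lie nearest to the upper line.

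The shared adaptor of the activating receptors hardly differed. Fcer1g (chromosome 1, 171229572 to 171234365, minus strand) gave 12556 on the knockout-labelled array and 12451 on the WT array, a difference of 0.01. Centring each array on its median turned this to -0.05, and removing the trend with genomic span also gave -0.05. The mean difference of the 3 activating receptors exceeded that of Fcer1g by 0.08. Tyrobp (chromosome 7, 30413788 to 30417582, plus strand) gave 9860 on the knockout-labelled array and 8865 on the WT array, a difference of 0.15 at the 92.6th percentile. Tyrobp spans 3.795 kb, and the 500 genes of most similar span had a median difference of 0.06. With the trend of difference on span removed, Tyrobp gave 0.08.

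Syk, the kinase that docks on phosphorylated ITAMs (chromosome 13, 52583173 to 52648792, plus strand), gave 2666 on the knockout-labelled array and 2785 on the WT array. Its difference of -0.06 stood at the 36.6th percentile of genes of like signal. Syk has the longest span of the 8 at 65.6 kb, genes of like span had a median of -0.05, and with the span trend removed Syk gave -0.02.

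Fcgrt had the largest difference of the 8 (chromosome 7, 45092993 to 45103822, minus strand). It gave 1154 on the knockout-labelled array and 971 on the WT array, a difference of 0.25 or 1.19-fold, at the 95.4th percentile of genes of like signal. B2m, the gene of its light chain, gave 19155 on the knockout-labelled array and 18649 on the WT array, a difference of 0.04. That difference turned to -0.02 when the arrays were centred on their medians. Of the 8, Fcgrt had the comparison genes with the widest middle 95%, from -0.33 to 0.33. After loess normalization Fcgrt stood at 0.28, and after quantile normalization also at 0.28, past 1.2-fold in both cases.

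Fcgr2b, Fcgr4, Fcgr3 and Fcer1g lie within a gene-rich stretch of chromosome 1. There were 18 neighbours at or over the floor within 0.2 Mb of 1 of these 4 genes. Of them 10 were higher and 8 lower, and the median was 0.02, beside 46.4% higher over all genes above the floor. Pcp4l1 gave 985 on the knockout-labelled array and 1300 on the WT array (-0.40). Ufc1, encoding the conjugating enzyme for the ubiquitin-like protein UFM1, gave 1139 on the knockout-labelled array and 903 on the WT array (0.33). The small nuclear RNA gene Rnu1b1, placed inside Fcgr4 on the same strand, had -0.06 from a probeset that is not marked unique.

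**Figure D3:**
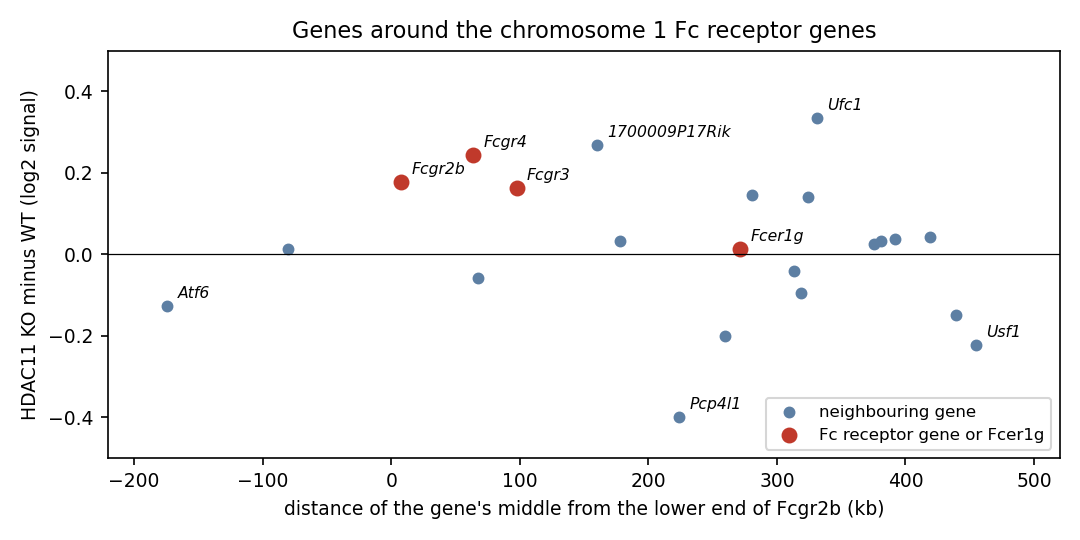
Difference in log2 signal, HDAC11 KO minus WT, of genes above the floor around the Fc receptor genes of chromosome 1, against the distance of each gene's middle from the lower end of Fcgr2b in kb. Fcgr2b, Fcgr4 and Fcgr3 lie between 0.16 and 0.24, Fcer1g lies at 0.01, and the neighbours scatter on both sides of 0 between -0.40 and 0.33.

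Fcgr1 had the lower signal on the knockout-labelled array, while most of its neighbours had the higher. It lies in a cluster of replication-dependent histone genes. Of 9 neighbours that reached the floor, 8 were higher and 1 lower, and the median was 0.23, against -0.12 for Fcgr1. Over all genes above the floor, 46.4% had a difference above 0. The histone genes and Terc have shorter spans than the 11.3 kb of Fcgr1, and the part of span here was not tested. The histone gene Hist2h2be gave 620 on the knockout-labelled array and 459 on the WT array (0.43). Terc, the RNA of telomerase, gave 1365 on the knockout-labelled array and 1006 on the WT array (0.44). The probesets of Hist2h2aa1 (0.39), Hist2h3c2 (0.23) and 4930459I23Rik (0.22) are not marked unique.

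Next to Tyrobp lies Hcst, which encodes DAP10, an adaptor that signals through phosphoinositide 3-kinase in place of Syk. Hcst gave 472 on the knockout-labelled array and 273 on the WT array, a difference of 0.79 or 1.73-fold. It was the only gene above the floor in the pathway lists to reach 1.5-fold and is in the authors' sheet of selected probesets. The middle 95% of genes of like signal ran from -0.38 to 0.38. Hcst lies on the opposite strand, and its probeset and that of Tyrobp overlap by 256 bases at their ends. Tyrobp itself differed by 0.15. Over the 20 neighbours of Tyrobp that reached the floor, 15 were higher and 5 lower, and the median was 0.08. The share higher over all genes above the floor was 46.4%, and the part of span here was not tested.

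The other genes of the pathway were taken from 8 lists, and a list is described here by its counts and median beside the 12157 genes. Other Fc receptors were mostly dim: of 13 measured, 4 were above the floor. Fcrls, an Fc receptor-like gene of mouse myeloid cells, gave 393 on the knockout-labelled array and 265 on the WT array, a difference of 0.57 or 1.48-fold, past the 0.37 that bounds the middle 95% of genes of like signal. Trim21, a cytosolic antibody receptor, gave 514 on the knockout-labelled array and 605 on the WT array (-0.24). The IgE receptor chains Fcer1a and Ms4a2 were near the bottom of the signal range: Fcer1a gave 20.2 on the knockout-labelled array and 19.2 on the WT array, and Ms4a2 gave 30.4 on the knockout-labelled array and 32.8 on the WT array.

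Receptors that borrow the adaptors differed little in most cases. Of 12 listed partners of Fcer1g, 8 were measured and 4 were above the floor, all 4 higher with a median of 0.09 and none at 1.2-fold. The C-type lectin genes Clec4d (0.13) and Clec4n (0.15) were furthest from 0. Clec4b1, below the floor and named after its value was seen, gave 86.9 on the knockout-labelled array and 136 on the WT array (-0.64), and is in the authors' sheet of selected probesets. Of 13 measured genes in the Tyrobp list, which also holds Hcst, 7 were above the floor, 2 higher and 5 lower with a median of -0.05. Trem2, a lipid receptor that signals through Tyrobp and is named here after its value was seen, gave 10943 on the knockout-labelled array and 10186 on the WT array (0.10). Clec5a (-0.44) and Pilrb1 (-0.39), also named after their values were seen, were lower by over 1.2-fold.

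Downstream of the receptors more genes were lower than higher, by small amounts. Of the 5 Src family kinases above the floor 1 was higher and 4 lower, and the median was -0.16. Fgr gave 796 on the knockout-labelled array and 932 on the WT array (-0.23). Among 27 genes of the Syk pathway 6 were higher and 21 lower, and the median was -0.08. The exchange factor Vav3 gave 1241 on the knockout-labelled array and 1772 on the WT array (-0.51 or 1.43-fold), below the -0.33 that bounds the middle 95% of genes of like signal. The phosphoinositide 3-kinase subunit Pik3cd had -0.31. With Plcg2 (-0.29), named after its value was seen, these were the 3 of 27 genes lower by 1.2-fold, against 6.93% of all genes above the floor. Of all those genes 5639 were higher and 6467 lower.

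Among genes that restrain the signal, most were also lower. Of 16 inhibitory signalling genes that reached the floor, 2 were higher and 14 lower, and the median was -0.09. The ubiquitin ligase Cblb had -0.27 and the phosphatase Ptpn22 had -0.24. SHIP1, the partner of Fcgr2b encoded by Inpp5d, is given although the naming rule does not reach it, with 3015 on the knockout-labelled array and 3142 on the WT array (-0.06). Taking the kinases, the Syk pathway and the inhibitory genes as 1 group, 9 were higher and 39 lower. Their median was -0.09, and 4 of 48 were lower by 1.2-fold against 6.93% of all genes.

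These lists hold long genes. The median genomic span was 53.4 kb in the Src family kinases, 50.1 kb in the Syk pathway and 51.7 kb in the inhibitory list, against 19.97 kb over all genes above the floor and 10.8 to 15.6 kb for the 4 IgG receptors and Fcgrt. With the trend of difference on span removed, the Src family kinases had a median of -0.09, the Syk pathway -0.06 and the inhibitory list -0.08. The 5331 intron control probesets of the array had a median difference of -0.36. Their part in these results was not tested.

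**Figure D4:**
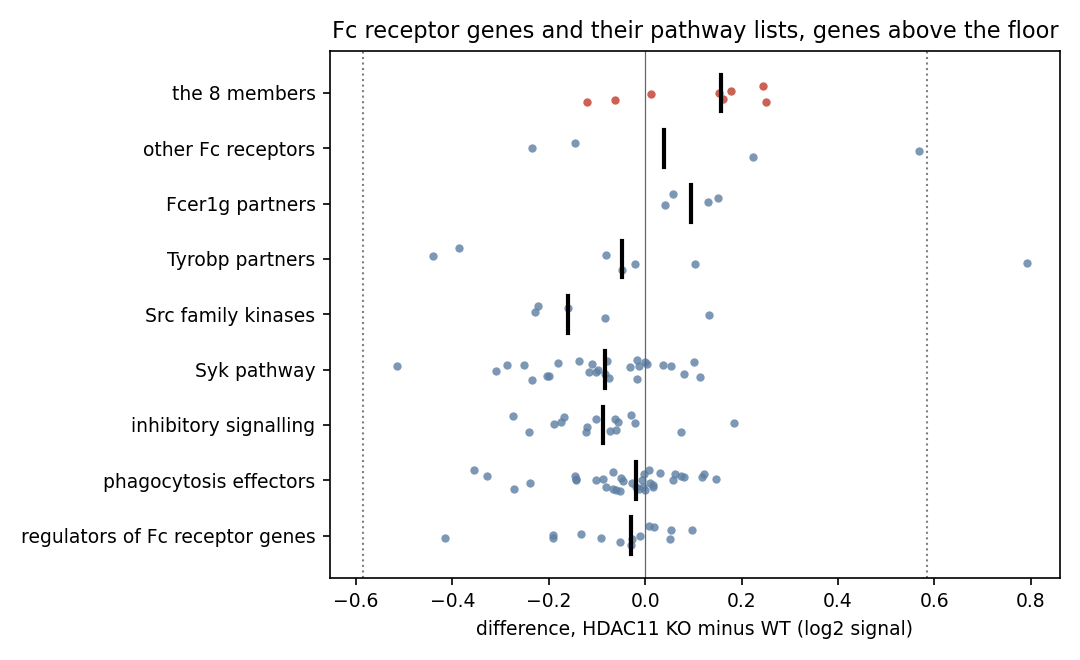
Difference in log2 signal, HDAC11 KO minus WT, of the 8 Fc receptor genes and adaptors (red) and of the genes above the floor in each pathway list (blue), with list medians as black bars and dotted lines at 1.5-fold. The 8 genes have a median of 0.16, the kinase, Syk and inhibitory lists have medians of -0.16 to -0.08, and Hcst alone lies past 1.5-fold.

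Phagocytosis effectors, the actin, membrane and oxidase genes that act during engulfment, had a median of -0.02, with 12 of 35 higher and 22 lower. With each array centred on its median, these became 6 higher and 29 lower, at a median of -0.08. The kinase Pak1 (-0.36) and the Rac activator Elmo1 (-0.33) were furthest from 0. Among 14 regulators of Fc receptor genes 5 were higher and 9 lower, and the median was -0.03. After median centring 1 was higher and 13 lower, at -0.09. Centring lowered every difference by the same amount, so values near 0 changed sign in both lists. Before centring 46.4% of genes above the floor were higher, and this share was not counted after it. Irf1, an interferon-induced transcription factor, gave 653 on the knockout-labelled array and 871 on the WT array (-0.42 or 1.33-fold). The gene of PU.1, listed under its older symbol Sfpi1, had -0.05.

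The arrays and cells differed in ways that bear on every value above. The targeted gene Hdac11 gave 147 on the knockout-labelled array and 135 on the WT array, both below the floor. The knockout-labelled array was thus not the lower of the pair. These values come from the brighter of 2 Hdac11 probesets, and the mean of both gave a difference of 0.09. The sources used here do not say whether the probes lie in the deleted part, so each direction rests on the label. Ddx3y, Eif2s3y, Kdm5d and Uty, all 4 on the Y chromosome, gave 25.9 to 98.0 on the knockout-labelled array and 176 to 314 on the WT array, and genotype and the sex of the mice cannot be told apart. All 8 macrophage markers were above the floor, with a median difference of 0.03 and summed signals of 59024 on the knockout-labelled array and 57288 on the WT array.

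Markers of other cell types were measured as well, and in bulk RNA fewer cells of a type and less RNA per cell cannot be told apart. Of 8 mast cell markers 1 was above the floor, Cpa3 (1.12), with 366 on the knockout-labelled array and 169 on the WT array. The 8 summed to 823 on the knockout-labelled array and 559 on the WT array, and their median difference was 0.065. Of 8 neutrophil markers 1 was above the floor, S100a8 (0.89), with 376 on the knockout-labelled array and 203 on the WT array. The 8 summed to 902 on the knockout-labelled array and 677 on the WT array, and their median difference was 0.27, while S100a9 and Camp, named after their values were seen, had -0.11 and -0.10. Monocyte markers had 4 of 6 above the floor, a median of -0.07, and sums of 10358.5 on the knockout-labelled array and 12799 on the WT array. Among them Chil3, listed as Chi3l3, had 0.82, and Fn1, named after its value was seen, had -0.35. Fn1 alone gave 9340 on the knockout-labelled array and 11878 on the WT array, most of both sums, so the sums mainly follow Fn1. Of 6 eosinophil markers 1 was above the floor, Siglecf (0.27, listed as Siglec5). The 6 summed to 656 on the knockout-labelled array and 623 on the WT array, and their median difference was -0.039. Of 7 dendritic cell markers 3 were above the floor, with sums of 8478 on the knockout-labelled array and 8590 on the WT array. Itgax alone gave 7665 on the knockout-labelled array and 7755 on the WT array, most of both sums. Of 6 B cell markers 5 were above the floor, with a median of -0.0034 and sums of 4173 on the knockout-labelled array and 3798 on the WT array. Cd22 had a difference of 0.24, and its 3109 on the knockout-labelled array and 2640 on the WT array were most of both sums. Of 5 measured NK cell markers 1 was above the floor, Prf1 (-0.27). The 5 summed to 361 on the knockout-labelled array and 364 on the WT array, and their median difference was 0.14. Of 6 measured T cell markers none was above the floor, with sums of 533 on the knockout-labelled array and 503 on the WT array. Stromal cell markers had 6 of 7 above the floor, all 6 lower with a median of -0.21, and summed to 2997 on the knockout-labelled array and 3639 on the WT array. Resident macrophage markers had 6 of 7 above the floor, a median of -0.27, and sums of 1642 on the knockout-labelled array and 2030.1 on the WT array. No marker was listed at 0, as RMA gives every probeset a positive signal. The part of these cells in the differences of the Fc receptor genes was not tested.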

How the data were processed

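Transcript levels were measured on 2 Affymetrix arrays, 1 per genotype, with an input of 100 ng RNA and 5.5 ug cDNA per array, per the labels' protocols. The authors deposited RMA signals as linear intensity values for 41345 probesets, and the submitters' processing notes name RMA and Affymetrix Expression Console 1.2.1. A second deposited table, the series matrix, gives these signals as log2 values and matched them to within 5e-05. A signed fold column scored by the authors (a score of brighter over dimmer signal) was recomputed from the signals without a mismatch. The sources used here do not give the genome build. Coordinates of genes are those deposited, all 8 genes overlapped their RefSeq GRCm38.p6 gene, and promoters are RefSeq's in that build.

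Of each gene the probeset with the highest mean signal was used, and log2 signals were subtracted with no offset. Of 222 list entries 215 were measured, 5 of them under an older symbol. The members, lists and rules were chosen with earlier results of these data known. Named are the 8 genes, Hdac11, B2m, genes within 0.2 Mb of the 8, and from each list up to 4 genes past 1.5-fold, or where none passed it the 2 with the greatest differences. Outside this rule, Fcer1a, Ms4a2, Sfpi1 and the 4 Y-linked genes were named after their values were seen. The fold counts, list medians and windows were run on permuted differences of these arrays with known shifts added. That run checks the arithmetic only, and the other steps were not covered by it. Alternatives covered the source of values, scaling, an offset of 16, the probeset summary, genomic span and the floor. Python 3.11.15, numpy, pandas, statsmodels and matplotlib were used. Some genes that the naming rule reaches are not reported here.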

Additional observations from a re-analysis of the deposited data

How the results depend on the processing

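No paired analysis was possible because each genotype has 1 array. For the same reason no replicate could be left out, and no setting gives a p-value. The differences of the 8 genes stayed within 0.1 of their reported values under the 7 alternatives for each, and Fcgrt passed 1.2-fold after quantile and loess normalization, giving 1 gene higher in each. Fcgr1 minus Fcgr2b ran from -0.31 to -0.28. Only Fcer1g of the 8 changed sign, in 2 settings (median centring and span trend removed), which left 5 of the 8 higher in each. A setting limited to probesets marked unique was chosen after seeing the data, and it left 3 genes lower in the Tyrobp list.

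Median centring used the median over all 24314 genes, those below the floor included, and shifted every difference by -0.06. Median centring moved the genes past 1.2-fold to 542 upward and 1456 downward. It left 3 genes higher in the Syk pathway, 6 in the phagocytosis list and 1 among the regulators, and gave the Fcer1g partners a median of 0.037 with 1 lower. The medians then were -0.14 in the Syk pathway and -0.15 in the inhibitory list. With no floor 1.2-fold was passed upward by 3116 genes and downward by 1737, and 1.5-fold upward by 250 and downward by 258. With no floor 8 other Fc receptors were higher and 5 lower, 2 Fcer1g partners were lower, 5 genes of the Tyrobp list were higher and 8 lower, and 2 Src family kinases were higher. With the floor at the 25th percentile 1899 genes were higher by 1.2-fold and 121 by 1.5-fold, 5 other Fc receptors were higher and 4 lower, 2 Fcer1g partners and 8 of the Tyrobp list were lower, and 2 Src family kinases were higher. With it at the 75th percentile 1.2-fold was passed upward by 276 genes and downward by 297, 1.5-fold upward by 23 and downward by 35, and 1 gene of the Tyrobp list, 0 Src family kinases and 1 inhibitory gene were higher. A lower floor admits dim probesets and a higher one tests fewer genes. The cause of the other changes was not tested.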
